A study of Mus musculus with 12 samples.

Results

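The 5 transcription factors Zbtb46, Batf3, Nfil3, Bcl6 and Spi1, which act in the lineage of conventional dendritic cells (cDCs), were followed through 4 dendritic cell populations of mouse bone marrow. They are 5 of the 21754 genes in the count table and were chosen by name. RNA came from healthy, adult wild type C57BL/6 mice, an inbred strain, without treatment, and the study speaks of 3 individual animals. The populations were sorted after depletion of lineage-positive cells as Siglec-H-negative pre-cDCs, CD11c+Siglec-H+ CCR9lo-B220lo cells (lo-lo), CCR9lo-B220hi cells (lo-hi) and CCR9hi B220hi plasmacytoid dendritic cells (pDCs), with 3 libraries each.

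Conventional dendritic cells present antigen to T cells, and pDCs are specialised in producing type I interferon. Both arise in the bone marrow, where sets of transcription factors steer precursors to one or the other fate. ZBTB46 is a zinc finger repressor that marks cells committed to the cDC lineage. BATF3 is an AP-1 family factor required for cDC1s, NFIL3 a basic leucine zipper repressor that acts early on the cDC1 path, and BCL6 a zinc finger repressor needed for normal numbers of cDC1s. Spi1 encodes PU.1, an ETS factor that acts at high dose in myeloid and cDC development, and its relative SPIB is an ETS factor of pDCs.

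The assignment of wells to populations differed from the deposited labels and decides every comparison. Pre-cDCs were wells A1, A5 and A9, lo-lo cells A2, A6 and A10, lo-hi cells A3, A7 and A11, and pDCs A4, A8 and A12, which are replicates 1, 2 and 3 in this order. This assignment follows a match by rank to values the study published for named samples. With the 5 factors left out of the match, each of the 12 named samples had 1 well in which 0 of 253 pairs of the 23 remaining transcription factors were ranked in another order, and every other well differed in at least 7 pairs. The deposited label named the same population in A1, A6, A7, and A12, which are 4 wells, but another one in the remaining 8. The transcript of the sort marker Siglech reached 206 to 443 CPM (counts scaled to a common library size) in pre-cDCs, 729 to 999.6 in lo-lo, 1987 to 2367 in lo-hi and 2537 to 2992 in pDCs by this assignment. Grouped by label, Siglech ran from 276 to 2039 CPM in pre-cDCs and from 729 to 2992 in pDCs, so that the labelled groups overlapped. With the labelled groups, 0 of 15293 genes passed an adjusted p of 0.01 in edgeR's test between the 4 populations (smallest adjusted p 0.521, 166 genes with an unadjusted p under 0.05).

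Total counts ranged from 1801463 to 5995971 per library, so that 3 counts, taken as the floor of detection, came to 0.5003 to 1.67 CPM. The 4 libraries of replicate 3 stood apart in sex-linked transcripts, which were named after their values were seen. Their counts were 58 to 145 for Ddx3y and 87 to 119 for Xist, against 1 to 10 and 601 to 1959 in replicates 1 and 2. Each population held 1 such library. Neutrophil markers summed to 3236 to 20587 CPM and erythroid markers to 4692 to 18435 CPM per library. In either list, 0 of 8 genes passed between the populations. The neutrophil sums were 4405 to 11423 CPM in pre-cDCs, 5300 to 17650 in lo-lo, 9846 to 20587 in lo-hi and 3236 to 6584 in pDCs. Lo-hi cells and pDCs thus did not overlap in these sums. All 8 neutrophil markers were lower in pDCs than in lo-hi cells, by log2 fold changes from -1.58 to -1.25, with 0 passing. The part of neutrophils in the levels of the factors was not tested. Of the other lists, 1 of 8 B lineage markers (Cd79b), 1 of 6 tested T and NK markers (Lck) and 0 of 7 tested basophil, mast cell and platelet markers passed between the 4 populations. In bulk RNA, fewer cells that express a factor and less of its RNA per cell cannot be told apart.

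Levels are given as CPM after scaling by the trimmed mean of M values (TMM), which are comparable between libraries for 1 gene. Since mostly 3′ ends are read, levels were not compared between genes. Tests were edgeR quasi-likelihood tests over the 15293 genes whose mean count was 1 or more, and a gene was called at a Benjamini-Hochberg adjusted p under 0.01. Between the 4 populations, 3 of the 5 factors were called (Zbtb46, Batf3 and Spi1), beside 19.9% of all tested genes. The adjusted p was 1.61e-10 for Spi1, 2.56e-10 for Batf3, 1.04e-07 for Zbtb46, 0.0119 for Bcl6 and 0.507 for Nfil3.

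**Figure D1:**
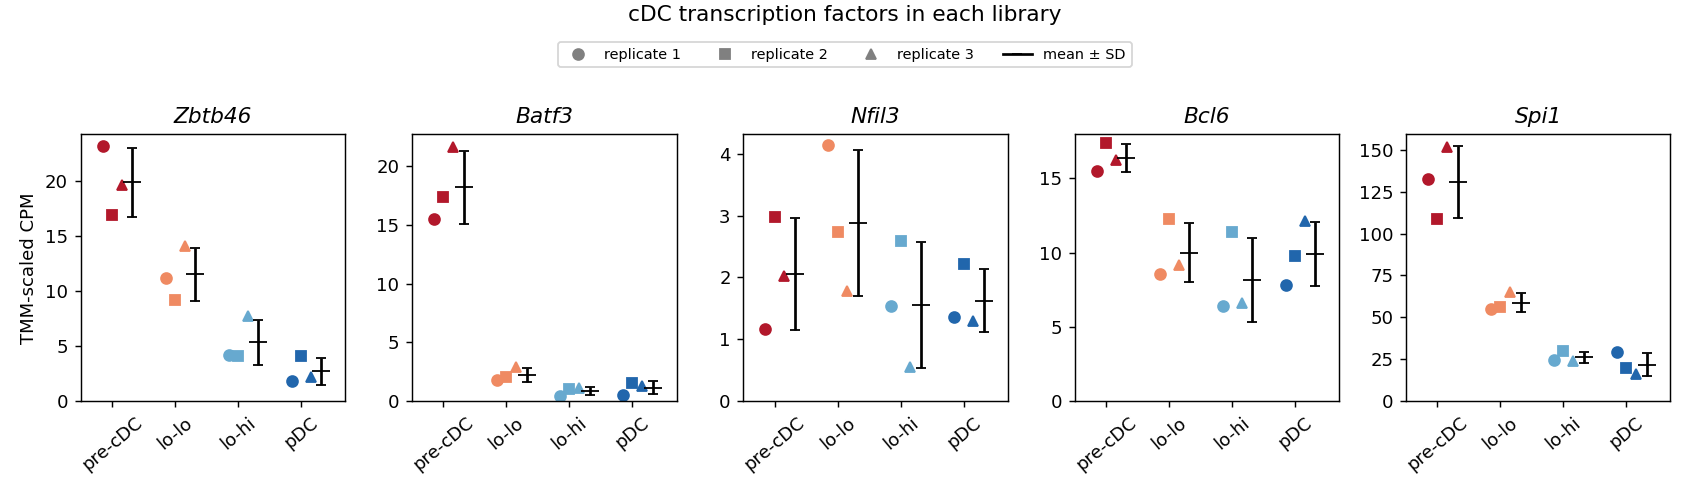
TMM-scaled CPM (linear axes starting at 0, 1 scale per gene) of the 5 factors in each of the 12 libraries, with replicates as symbols and the mean ± SD of 3 libraries in black. Spi1, Zbtb46 and Batf3 were highest in all 3 pre-cDC libraries, Batf3 stood at 3 CPM or less elsewhere, and Nfil3 overlapped between all populations.

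Spi1 (ENSMUSG00000002111, GRCm38 chr2:91082390-91115756, plus strand, protein coding) had 37 to 453 counts per library. Pre-cDC replicates 1 to 3 had 133, 109 and 151 CPM, and lo-lo replicates 54.9, 56.0 and 65.2 CPM. In lo-hi cells the values were 24.3, 30.0 and 24.2 CPM, and in pDCs 29.5, 19.6 and 16.1 CPM. Every pre-cDC library lay above every lo-lo library, and these above all lo-hi and pDC libraries, while lo-hi cells and pDCs overlapped. The means were 131 ± 21.4 in pre-cDCs, 58.7 ± 5.66 in lo-lo, 26.2 ± 3.31 in lo-hi and 21.7 ± 6.95 CPM in pDCs (SD, n = 3 each). Spi1 was lower in lo-lo than in pre-cDCs by a log2 fold change of -1.16 ± 0.18 (SE, edgeR adjusted p = 1.69e-04), and lower again in lo-hi than in lo-lo by -1.18 ± 0.20 (edgeR adjusted p = 2.74e-04). The difference between these steps was -0.02, with a 95% interval from -0.68 to 0.64. From lo-hi to pDCs the log2 fold change of Spi1 was -0.21, with a 95% interval from -0.65 to 0.22 (edgeR adjusted p = 0.816). Monocyte and macrophage markers moved with Spi1 in part. Their 8 genes summed to 4489 to 4811 CPM in pre-cDCs, 2778 to 3591 in lo-lo, 3506 to 4438 in lo-hi and 3074 to 4041 in pDCs, 0 of them were at 0 in any population, and 4 of 8 were called between the 4 populations. F13a1, the coagulation factor XIII A chain, fell from 95.9 ± 10.9 CPM in pre-cDCs to 21.6 ± 1.57 in lo-lo and 9.62 ± 1.12 in pDCs (SD, n = 3). Ccr2, a chemokine receptor of monocytes and some dendritic cell precursors, fell from 444 ± 51.0 to 166 ± 27.2 and 124 ± 42.1 CPM in the same populations. Ly6c2, an abundant monocyte marker that pDCs also express, went another way, with 2201 ± 169 CPM in pre-cDCs, 1956 ± 67.7 in lo-lo, 2471 ± 109.6 in lo-hi and 2735 ± 439 in pDCs, and was named after its values were seen. The part of these cells in the Spi1 difference was not tested.

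Zbtb46 (ENSMUSG00000027583, GRCm38 chr2:181387762-181459426, minus strand, protein coding) fell through the series. Its levels were 23.1, 16.9 and 19.6 CPM in pre-cDC replicates 1 to 3 and 11.2, 9.21 and 14.1 CPM in lo-lo. They were 4.2, 4.14 and 7.72 CPM in lo-hi and 1.87, 4.11 and 2.17 CPM in pDCs. The 4 populations did not overlap for Zbtb46 in any pair. However, the lowest lo-hi and the highest pDC library were 4.14 and 4.11 CPM, from 8 and 13 counts. Means were 19.9 ± 3.14 in pre-cDCs, 11.5 ± 2.44 in lo-lo, 5.35 ± 2.05 in lo-hi and 2.72 ± 1.21 CPM in pDCs (SD, n = 3), with 5 to 79 counts per library. No single step of Zbtb46 was called in the main fit, which held no replicate block. The log2 fold changes were -0.78 ± 0.25 from pre-cDC to lo-lo, -1.19 ± 0.30 from lo-lo to lo-hi and -0.95 ± 0.38 from lo-hi to pDC (SE, edgeR adjusted p = 0.0637, 0.0113 and 0.278). Comparisons across 2 or more steps were called for Zbtb46, with -1.97 ± 0.29 in lo-hi against pre-cDCs, -2.14 ± 0.32 in pDCs against lo-lo and -2.93 ± 0.31 in pDCs against pre-cDCs (edgeR adjusted p = 1.56e-05, 1.27e-05 and 3.57e-08). The step from lo-lo to lo-hi lay near the cutoff. It had an adjusted p under 0.01 in 9 of 21 alternatives that kept these groups, the replicate block among them. Over the 21, its adjusted p ran from 0.00182 to 0.142, with the highest value without lo-hi replicate 1.

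Batf3 (ENSMUSG00000026630, GRCm38 chr1:191097847-191108945, plus strand, protein coding) had the largest fitted fall of the 5 factors between pre-cDCs and lo-lo cells. RefSeq gives start sites for Batf3, Nfil3, Bcl6 and Zbtb46 on GRCm38.p6. The Zbtb46 entry is the start of an annotated transcript that lies inside the gene, downstream of its first start. The bases printed for Zbtb46 thus lie inside the gene and may not be a promoter, and those before its first start are not shown. The bases printed for Batf3 also lie wholly inside its annotated gene, downstream of the gene's first start, and carry the same limit. The 250 bases before the start are shown for Batf3 and, to set beside it, for Zbtb46, Nfil3 and Bcl6, which had no called step between neighbours (chr1:191098164-191098413, plus strand, for Batf3, chr2:181424389-181424638, minus strand, for Zbtb46, chr13:52981040-52981289, minus strand, for Nfil3 and chr16:23988853-23989102, minus strand, for the more upstream of 2 Bcl6 entries). Capitals mark GGAA or its reverse complement TTCC, the core letters of ETS factor motifs, and in Zbtb46 the E-box CACCTG and the AP-1 letters TGANTCA:
Batf3: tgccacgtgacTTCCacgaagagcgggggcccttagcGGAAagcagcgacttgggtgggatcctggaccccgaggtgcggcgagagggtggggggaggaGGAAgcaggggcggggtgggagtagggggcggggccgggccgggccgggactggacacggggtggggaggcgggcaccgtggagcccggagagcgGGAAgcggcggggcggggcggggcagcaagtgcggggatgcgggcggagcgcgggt
Zbtb46: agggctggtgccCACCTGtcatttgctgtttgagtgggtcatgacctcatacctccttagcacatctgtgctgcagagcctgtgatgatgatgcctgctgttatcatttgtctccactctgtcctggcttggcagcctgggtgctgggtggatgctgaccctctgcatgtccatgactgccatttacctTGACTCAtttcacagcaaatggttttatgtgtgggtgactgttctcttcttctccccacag
Nfil3: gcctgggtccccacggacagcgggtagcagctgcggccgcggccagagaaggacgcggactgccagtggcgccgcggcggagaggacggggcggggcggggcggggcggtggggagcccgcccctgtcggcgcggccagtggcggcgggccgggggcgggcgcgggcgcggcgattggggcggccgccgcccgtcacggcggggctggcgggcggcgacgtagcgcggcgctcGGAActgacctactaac
Bcl6: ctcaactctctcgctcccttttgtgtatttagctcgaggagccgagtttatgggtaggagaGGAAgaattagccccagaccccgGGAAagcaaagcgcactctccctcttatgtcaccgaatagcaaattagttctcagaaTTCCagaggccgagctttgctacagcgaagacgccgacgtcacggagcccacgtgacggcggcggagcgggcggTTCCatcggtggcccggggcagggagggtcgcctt
Over the 300 bases from 250 before to 50 after the start, GGAA occurred on either strand 4 times for Batf3, 1 time for Nfil3, 5 times for this Bcl6 entry and 0 times for Zbtb46. The same letters occur in 96.0% of all 32851 such windows. The longer PU.1 letters GAGGAAGT, which contain GGAA, the AP-1 letters TGANTCA, the NFIL3 letters TTANGTAA, the E-box CACCTG and a tandem interferon regulatory factor motif occur in 3.20%, 7.81%, 2.32%, 20.2% and 3.44% of all windows. Of these, the Zbtb46 window held the AP-1 letters, starting 61 bases before the start, and the E-box 238 bases before it, and the other printed windows held none. A match of letters is a description and not a binding site.

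The levels of Batf3 were 15.5, 17.4 and 21.6 CPM in pre-cDC replicates 1 to 3, from 53, 35 and 64 counts. In lo-lo they were 1.77, 2.05 and 2.90 CPM, from 6, 6 and 13 counts. All 3 lo-hi libraries held 2 counts, under the floor, and pDC replicates held 3, 5 and 3. Pre-cDCs thus lay far above all other libraries of Batf3, and lo-lo above the remaining ones, while lo-hi and pDCs overlapped. Means were 18.2 ± 3.13 in pre-cDCs, 2.24 ± 0.59 in lo-lo, 0.860 ± 0.363 in lo-hi and 1.13 ± 0.554 CPM in pDCs (SD, n = 3). Batf3 fell from pre-cDCs to lo-lo by a log2 fold change of -2.96 ± 0.32 (SE, edgeR adjusted p = 9.71e-07). On summed counts, pre-cDCs had 7.42 times the rate of lo-lo cells (exact 95% interval 4.84 to 11.8), 24.9 times that of lo-hi cells (11.2 to 69.0) and 19.0 times that of pDCs (10.3 to 38.8). These intervals cover counting error only. The sex-linked transcript Ddx3y also held 1 to 10 counts in replicates 1 and 2, where Xist was high. Whether counts this low arise outside the sorted cells was not tested. Pre-cDCs were also higher than lo-hi cells and pDCs in edgeR's test (adjusted p = 1.33e-08 and 2.13e-09). Batf3 in lo-hi against lo-lo was not called (edgeR adjusted p = 0.0824), and lo-lo cells had 3.36 times the rate of lo-hi cells on summed counts (1.35 to 10.02). Mast cell and basophil transcripts moved with the first step without being called, with log2 fold changes of -3.12 for Cpa3, -2.78 for Mcpt8 and -2.68 for Prss34 (edgeR adjusted p = 0.0479, 0.0909 and 0.108). Mcpt8, a basophil protease, ran from 34.5 to 247 CPM in pre-cDCs and from 11.2 to 33.1 in lo-lo. The 8 markers of this list summed to 124 to 897 CPM in pre-cDCs, 56.9 to 240.4 in lo-lo, 124 to 241 in lo-hi and 64.6 to 184 in pDCs. Ms4a2, the beta chain of the high-affinity IgE receptor, was at 0 in all lo-hi libraries. The part of basophils and mast cells in the Batf3 difference was not tested. A difference between lo-hi cells and pDCs in Batf3 was not detected at this depth, with a ratio of pDC to lo-hi rates of 1.31 (0.445 to 4.33).

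Bcl6 (ENSMUSG00000022508, GRCm38 chr16:23965052-23988852, minus strand, protein coding) differed less. Its levels were 15.5, 17.4 and 16.2 CPM in pre-cDC replicates 1 to 3 and 8.56, 12.3 and 9.16 CPM in lo-lo. In lo-hi they were 6.40, 11.4 and 6.61 CPM, and in pDCs 7.83, 9.79 and 12.1 CPM. All pre-cDC libraries exceeded all others in Bcl6, whereas lo-lo, lo-hi and pDCs overlapped with each other. Means were 16.4 ± 0.928 in pre-cDCs, 10.002 ± 2.0 in lo-lo, 8.13 ± 2.81 in lo-hi and 9.92 ± 2.16 CPM in pDCs (SD, n = 3). In the main fit, the 1 called difference of Bcl6 was lo-hi against pre-cDCs, with a log2 fold change of -1.05 ± 0.26 (SE, edgeR adjusted p = 0.00472). It was -0.71 in lo-lo against pre-cDCs, with a 95% interval from -1.22 to -0.21 (edgeR adjusted p = 0.0915), and -0.76 in pDCs against pre-cDCs, with an interval from -1.27 to -0.26 (edgeR adjusted p = 0.0192). The difference of pDCs against pre-cDCs was under 0.01 in 1 of 21 alternatives that kept these groups, the replicate block (edgeR adjusted p = 0.00687). Among lo-lo, lo-hi and pDCs, the 95% intervals of the 3 log2 fold changes of Bcl6 lay between -0.90 and 0.85. The Bcl6 call in lo-hi against pre-cDCs was lost without pre-cDC replicate 1 (adjusted p = 0.0144), lo-hi replicate 1 (0.0634), lo-hi replicate 3 (0.0238) or all of replicate 3 (0.0363, chosen after seeing the data).

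Nfil3 (ENSMUSG00000056749, GRCm38 chr13:52967209-52981073, minus strand, protein coding) was low, with 1 to 14 counts per library. Pre-cDC replicates 1 to 3 had 1.17, 2.98 and 2.03 CPM, lo-lo 4.13, 2.73 and 1.79 CPM, lo-hi 1.55, 2.59 and 0.551 CPM and pDCs 1.36, 2.21 and 1.30 CPM. All 4 populations overlapped in Nfil3, and no population held the highest or the lowest libraries. Means were 2.06 ± 0.902 in pre-cDCs, 2.88 ± 1.18 in lo-lo, 1.56 ± 1.02 in lo-hi and 1.63 ± 0.508 CPM in pDCs (SD, n = 3). None of the 6 comparisons of Nfil3 was called, with edgeR adjusted p from 0.288 to 0.997. The 95% interval of the log2 fold change of pDCs against pre-cDCs ran from -1.41 to 0.87. Differences within this interval were compatible with the data, and the smallest detectable difference was not computed.

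The factors called in each comparison were counted beside the share of all genes. From pre-cDCs to lo-lo cells, 2 of the 5 factors were called lower (Batf3 and Spi1) and 0 higher, beside 1.55% of all tested genes lower and 1.61% higher. From lo-lo to lo-hi, 1 of 5 was called lower (Spi1) and 0 higher, beside 2.83% lower and 2.33% higher. From lo-hi to pDCs, 0 of 5 were called in edgeR's test, beside 0.844% lower and 0.118% higher, with 0 of 5 called by DESeq2. At an unadjusted p under 0.05 in edgeR there was 1 of 5 (Zbtb46), beside 1735 of 15293 genes. Lo-hi cells against pre-cDCs gave 4 of 5 lower, all but Nfil3, beside 6.32% lower and 6.76% higher. PDCs against lo-lo gave 2 of 5 lower (Zbtb46 and Spi1), beside 7.08% lower and 6.71% higher. PDCs against pre-cDCs gave 3 of 5 lower (Zbtb46, Batf3 and Spi1), beside 10.4% lower and 11.4% higher. These comparisons share libraries. The difference between the second and the first step was called for 0 of 5 factors by edgeR, 0 of them at an unadjusted p under 0.05, beside 0.647% of all genes.

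**Figure D2:**
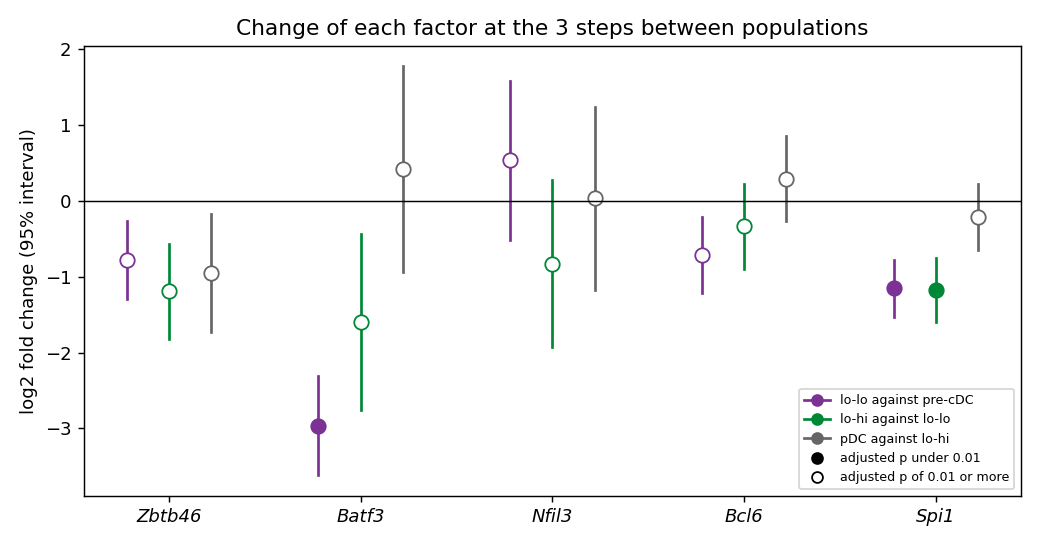
Log2 fold changes of the 5 factors (vertical axis, with 95% intervals as lines) at the steps from pre-cDC to lo-lo, lo-lo to lo-hi and lo-hi to pDC, with filled points for an edgeR adjusted p under 0.01. Filled points are Batf3 and Spi1 at the first step (-2.96 and -1.16) and Spi1 at the second (-1.18), and no point is filled at the third.

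The 4 wells whose deposited label names the same population as the match gave the order of the group means for Spi1, Zbtb46, Batf3 and Bcl6, and not for Nfil3. From pre-cDC well A1 over lo-lo well A6 and lo-hi well A7 to pDC well A12, Spi1 had 133, 56.0, 30.0 and 16.1 CPM. Zbtb46 had 23.1, 9.21, 4.14 and 2.17 CPM in these wells, and Batf3 15.5, 2.05, 1.03 and 1.30 CPM, from 2 counts in A7 and 3 in A12. Bcl6 had 15.5, 12.3, 11.4 and 12.1 CPM, and Nfil3 1.17, 2.73, 2.59 and 1.30 CPM. With 1 library per population, these values have no replicate error. The 4 wells are also part of the group means, so a shared order is partly built in. Grouped by the deposited labels instead, Spi1 ranged from 24.3 to 133 CPM in pre-cDCs, 29.5 to 109 in lo-lo, 19.6 to 151 in lo-hi and 16.1 to 65.2 in pDCs, with 0 of the 5 factors called in any comparison (edgeR, smallest adjusted p over all genes between the 4 groups 0.521).

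Spi1 and Spib, which encode related ETS factors, moved in opposite directions. Spib had 90.4 ± 5.87 CPM in pre-cDCs, 224 ± 15.9 in lo-lo, 354 ± 49.4 in lo-hi and 476 ± 68.5 in pDCs (SD, n = 3). Spib was higher in pDCs than in pre-cDCs by a log2 fold change of 2.40 ± 0.16 (SE, edgeR adjusted p = 2.32e-11), where Spi1 was lower by -2.55 ± 0.20 (edgeR adjusted p = 2.61e-10). Within a library, the log2 ratio of Spi1 to Spib counts needs no scaling between libraries. It was 0.55, 0.17 and 0.84 in pre-cDC replicates 1 to 3, -1.98, -1.92 and -1.89 in lo-lo, -4.06, -3.52 and -3.65 in lo-hi and -4.21, -4.58 and -4.65 in pDCs. The ratio was highest in the pre-cDC libraries and lowest in the pDC libraries, and the 4 groups did not overlap. The means were 0.52 ± 0.33, -1.93 ± 0.05, -3.74 ± 0.28 and -4.48 ± 0.24 in this order (SD, n = 3). Both genes were among the 28 factors whose order within a library was used for the full match of wells, and Spib among the 23 used without the 5 factors, so the ratio is given as a description with no test. Since counts of 2 genes depend on their 3′ ends, only its change between libraries was read.

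**Figure D3:**
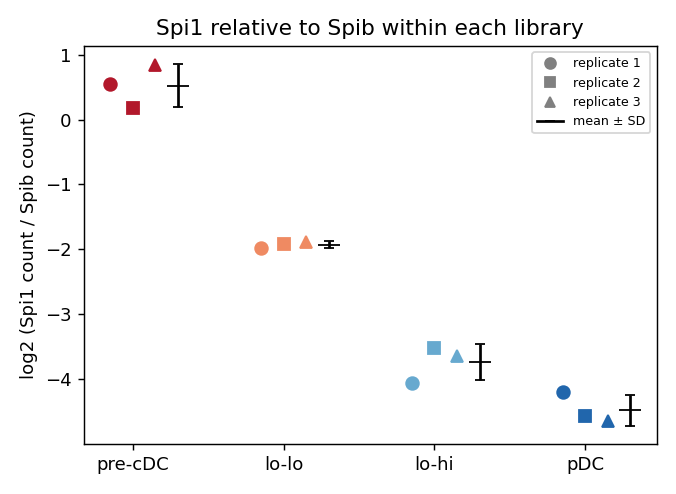
Log2 ratio of Spi1 to Spib counts in each library (vertical axis, 0.5 added to both counts), by population, with the mean ± SD of 3 libraries in black. Pre-cDC libraries lie highest (0.17 to 0.84), and the other populations follow without overlap, down to -4.65 in pDCs.

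The other regulators of dendritic cell fate were read from lists taken by name. Of 20 tested regulators of cDCs beside the 5 factors, 7 were called between the 4 populations, beside 19.9% of all genes. In pDCs against pre-cDCs, 5 of 20 were lower (Id2, Irf4, Notch2, Bhlhe40 and Cebpb) and 2 higher (Relb and Mycl), beside 10.4% and 11.4% of all genes, with a median log2 fold change of -0.23 over the list and 0.05 over all genes. Id2, an inhibitor of E proteins that opposes the pDC fate, had 53.1 ± 5.22 CPM in pre-cDCs, 17.7 ± 6.42 in lo-lo, 20.3 ± 4.27 in lo-hi and 14.4 ± 1.12 in pDCs (SD, n = 3). Its fall was called at the first step (-1.56 ± 0.21, edgeR adjusted p = 2.72e-05), as for Batf3 and Spi1, and not at the second (0.14 ± 0.23, edgeR adjusted p = 0.829). Spi1 was called at both steps. The difference between the second and the first step was called for 0 of these 20 regulators. Bhlhe40, a basic helix-loop-helix repressor, was lower in lo-lo than in pre-cDCs by -1.11 ± 0.23 (edgeR adjusted p = 0.00249). Relb, an NF-kappaB subunit, went the other way, from 12.1 ± 2.63 CPM in pre-cDCs to 27.8 ± 5.12 in pDCs (log2 fold change 1.21 ± 0.22, SE; edgeR adjusted p = 8.55e-05).

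Of 10 regulators of pDCs, 9 were called between the 4 populations, beside the same 19.9% of all genes. In pDCs against pre-cDCs 7 were higher (Bcl11a, Spib, Irf7, Ets1, Tcf12, Runx2 and Tcf4) and 1 lower (Cbfb), beside 11.4% and 10.4% of all genes. The median log2 fold change of this list was 1.44. Ets1, an ETS factor like PU.1, rose from 7.92 ± 4.2 CPM in pre-cDCs to 56.7 ± 8.43 in pDCs (SD, n = 3, log2 fold change 2.89 ± 0.25, SE; edgeR adjusted p = 1.72e-09). Cbfb, the partner subunit of RUNX factors, fell from 66.2 ± 5.75 to 28.4 ± 1.56 CPM (-1.22 ± 0.16, SE; edgeR adjusted p = 1.07e-06). At the first step, 7 of these 10 regulators were called higher and 0 lower, beside 1.61% and 1.55% of all tested genes, where Batf3 and Spi1 were lower. Some of the transcription factors in these lists were also used to match the wells.

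**Figure D4:**
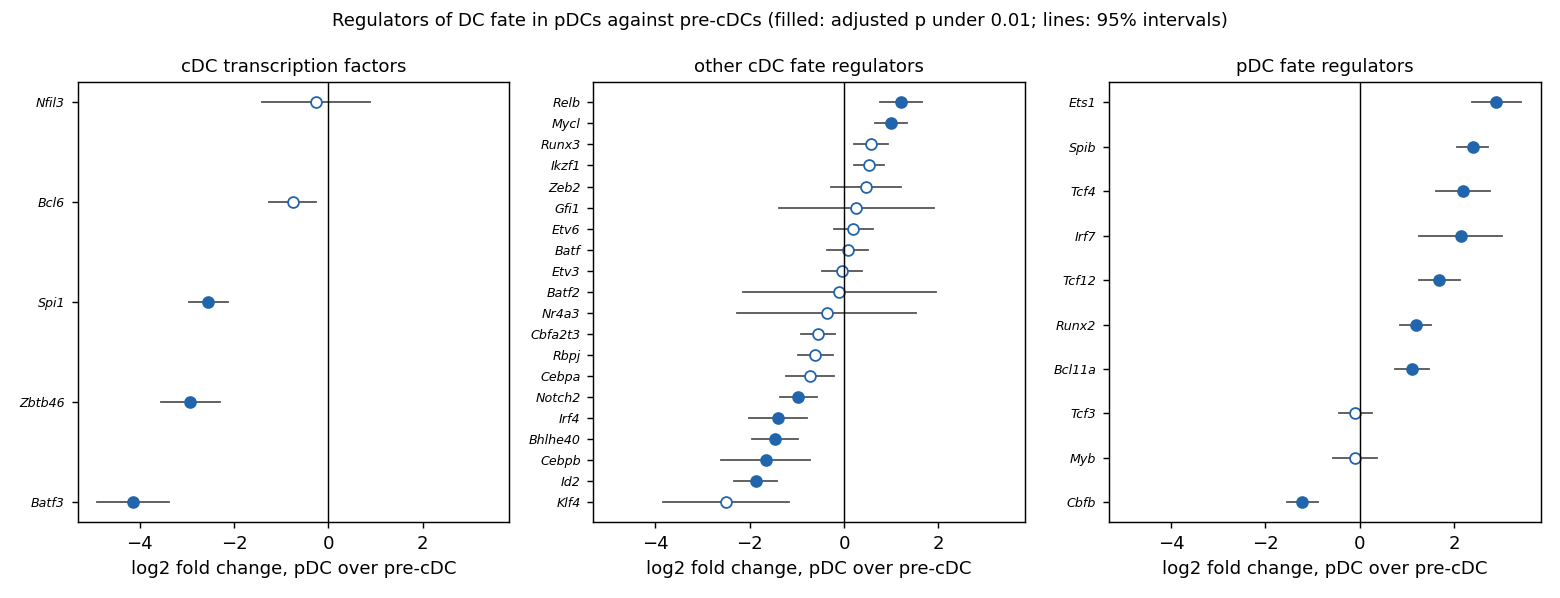
Log2 fold change of pDCs over pre-cDCs (horizontal axis, lines are 95% intervals) for the 5 factors, 20 other cDC regulators and 10 pDC regulators, filled where the edgeR adjusted p is under 0.01. All 3 filled points of the 5 factors lie below 0 (-4.14 to -2.55), the other cDC regulators have 5 filled points below and 2 above 0, and the pDC regulators 7 above and 1 below.

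Partners and relatives of the factors went both ways. Of 19 tested genes of this list, 5 were called between the 4 populations, and in pDCs against pre-cDCs 3 were higher (Spib, Zbtb4 and Tef) and 2 lower (Irf4 and Junb), with a median log2 fold change of 0.08. These counts lie near the shares over all genes, 19.9% between the 4 populations and 11.4% higher and 10.4% lower in pDCs against pre-cDCs. Junb, an AP-1 subunit of the family that pairs with BATF3, was 321 ± 61.9 CPM in pre-cDCs and 110 ± 10.7 in lo-lo (SD, n = 3, log2 fold change -1.54 ± 0.17, SE; edgeR adjusted p = 1.06e-06). Batf, a close relative of Batf3, had 18.2 ± 2.97 CPM in pre-cDCs and 19.3 ± 1.41 in pDCs, with a 95% interval of the log2 fold change from -0.36 to 0.52. It was chosen after its values were seen. Zbtb4, a relative of Zbtb46, rose from 5.78 ± 1.86 to 23.7 ± 7.75 CPM between pre-cDCs and pDCs (2.04 ± 0.30, SE; edgeR adjusted p = 6.82e-06).

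Genes of the PU.1 and cDC programs went both ways. Of 21 tested, 15 were called between the 4 populations, beside 19.9% of all genes. In pDCs against pre-cDCs 7 were higher and 7 lower, beside 11.4% and 10.4% of all genes, with a median log2 fold change of -0.78. Csf1r, the receptor of macrophage colony-stimulating factor and a textbook PU.1 target, fell with Spi1 from 89.9 ± 20.2 CPM in pre-cDCs over 39.1 ± 6.76 in lo-lo and 13.1 ± 2.55 in lo-hi to 7.32 ± 0.774 in pDCs (SD, n = 3). Its log2 fold change was -1.21 ± 0.18 at the first step and -1.61 ± 0.22 at the second (SE, edgeR adjusted p = 9.66e-05 and 2.14e-05), beside -1.16 and -1.18 for Spi1. Csf2rb, the common beta chain of receptors for granulocyte-macrophage colony-stimulating factor and related cytokines, rose from 65.7 ± 9.83 to 213 ± 20.2 CPM between pre-cDCs and pDCs (1.69 ± 0.16, SE; edgeR adjusted p = 4.34e-09). Clec10a, a C-type lectin, rose from 47.4 ± 13.5 to 186 ± 26.7 CPM (1.99 ± 0.18, SE; edgeR adjusted p = 3.44e-09).

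Genes with the most similar profile were found by the root mean square difference in log2 CPM over the 12 libraries, each gene centred on its mean, among 9643 genes with a mean of at least 5 CPM. For Spi1 these were S100a10, Slc31a2 and Emb (0.23 to 0.26, against a median of 1.09 over all genes compared). For Zbtb46 they were Hlx, Rab31 and Kif2c (0.23 to 0.27, median 1.10), and Rab31 had 20.3, 9.78, 4.92 and 2.56 CPM on average in pre-cDCs, lo-lo, lo-hi and pDCs. For Batf3 they were Tppp3, S100a4 and Pid1 (0.36 to 0.42, median 1.53), and S100a4 had means of 439.7, 82.1, 43.5 and 28.7 CPM. Bcl6 was nearest to Rps12l1, Svep1 and Gsap (0.21 to 0.23, median 0.55), and Nfil3 to Xpo5, Abhd14a and B230219D22Rik (0.31 to 0.34, median 0.62). These distances are a description of 12 libraries in 4 populations, and profiles of low counts such as those of Nfil3 hold much counting error.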

How the data were processed

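SCRB-seq, a bulk method with sample barcodes and poly(A) priming, was run on RNA of 12 sorted samples. Barcodes were handled by the authors with zUMIs, and alignment used STAR 2.5.2b on mm10 (GRCm38) with Ensembl genes. The deposited values are raw counts for each gene in each well. Whether these are reads or molecular identifiers is not given in the sources used here. Replicates are described as individual mice, but no source ties a replicate number to a mouse across populations.

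The factors and gene lists were chosen with earlier results of these data known. Wells were grouped by the match by rank described above, against the deposited labels in 8 of 12 wells, and groups by label were run as an alternative. Counts were scaled by TMM and tested by quasi-likelihood in edgeR 4.0.16 under R 4.3.3 (robust, 12 libraries in 1 fit, no covariates, minimum mean count 1, which kept 15293 genes and left out 6461, Benjamini-Hochberg cutoff 0.01). Standard errors come from the log2 fold change and its F statistic. The edgeR procedure was checked beforehand on simulated counts with large changes in lo-lo cells only. That check did not cover changes as small as the single steps of Spi1, Zbtb46 and Bcl6. Listed genes named are the 3 with the smallest p of each list between the 4 populations, with further names where counts were small, chosen after their values were seen. Symbols were found for 21410 of 21754 genes, and positions are from GENCODE vM21. Alternatives were DESeq2 1.42.0, its size factors, other filters, a cutoff of 0.05, a replicate block, only the libraries compared, thinning, and leaving out libraries. Ratios used Python 3.11.15 with SciPy 1.17.1. Some genes are not reported here.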

Additional observations from a re-analysis of the deposited data

How the results depend on the processing

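With the wells of the match, the comparisons in which Spi1, Batf3 or Zbtb46 was called kept the call and its direction in 21 of 21 alternatives each. Zbtb46 in lo-hi against lo-lo, not called at first, was called without a filter on low counts (adjusted p = 0.00182), with only the libraries compared (0.00329), at a cutoff of 0.05 and with the replicate block, which each gave 2 factors called at that step in place of 1. Thinning to the smallest total turned values near 0, Nfil3 in pDCs against lo-hi to -0.00055 and Bcl6 in pDCs against lo-lo to 0.37. Leaving out all of replicate 3, chosen after seeing the data, gave Nfil3 values of -0.19 for pDCs against lo-hi and 0.0067 for lo-hi against pre-cDCs (-0.68 at the lowest with 1 library left out), and a Bcl6 value of -0.29 for pDCs against lo-lo. Leaving out 1 library at a time gave 1 to 2 factors called in lo-hi against lo-lo, 3 to 4 in lo-hi against pre-cDCs and 3 to 4 between the 4 populations, and moved the log2 fold change of Batf3 in pDCs against lo-hi between -0.12 and 0.94, of Bcl6 in pDCs against lo-lo between -0.19 and 0.11 and of Nfil3 in pDCs against lo-hi between -0.25 and 0.38.

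Groups by the deposited labels gave 0 factors called in every comparison. Of 30 log2 fold changes, 13 changed sign there, 8 kept the sign and lost the call, and 9 kept the sign and stayed uncalled. Those that changed sign were 0.034 for Batf3, -0.014 for Nfil3 and 0.27 for Bcl6 in lo-lo against pre-cDCs. In lo-hi against lo-lo they were 0.10 for Zbtb46, 0.48 for Batf3, 0.013 for Nfil3, 0.030 for Bcl6 and 0.069 for Spi1. They were -2.08 for Batf3, -0.76 for Nfil3 and -0.41 for Bcl6 in pDCs against lo-hi. In lo-hi against pre-cDCs they were 0.51 for Batf3 and 0.30 for Bcl6. The mean log2 ratio of Spi1 to Spib was -1.83, -1.98, -2.42 and -3.40 in the labelled groups, from pre-cDC to pDC.

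The criterion used for pairing by replicate number, a correlation over 0.1 in every pair, was not met. Libraries of the same number correlated at -0.15 to 0.31 in their deviations from the group means (mean 0.12, 18 pairs). Over 36 pairs of different numbers the mean was -0.06. A missed criterion does not show that the samples are unpaired, and replicate 3 stood apart in sex-linked transcripts in every population. The main tests took no account of such a pairing. With the number as a block, Zbtb46 in lo-hi against lo-lo had a log2 fold change of -1.18 (adjusted p = 0.00479) and Bcl6 in pDCs against pre-cDCs -0.77 (0.00687), both then called, and no other of the 30 calls changed. Depth limits Nfil3 everywhere and Batf3 outside pre-cDCs, and Zbtb46 held few counts in lo-hi cells (8 to 19) and pDCs (5 to 13).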
